A study of Mus musculus with 27 samples.

Results

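The 8 genes Ogg1, Apex1, Fen1, Lig3, Lig4, Brca1, Fancc and Atm code for DNA repair and damage-signalling proteins, and they were followed through the peak lists of acetylated histone H3 and of FLAG-tagged ATP citrate lyase (ACLY) in mouse hepatocytes. They were selected on measured values of these lists, chiefly on the H3K27ac peaks that they hold in WT hepatocytes after hypoxia-reperfusion against normoxia, and the selection set H3K27ac against H3K9ac in all 3 conditions. Their acetylation counts are therefore a description in every list, and the background shares printed beside them support nothing. They are 8 of the 21887 coding genes that RefSeq places on GRCm38.p6 (mm10). A gene was counted as holding a peak where at least 1 base of the peak lay inside the gene or within 1 kb of it.

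The study looked at ACLY, which makes acetyl-CoA from citrate outside the mitochondria, in hepatocytes deprived of oxygen and then given it back. Primary hepatocytes were put into culture conditions 24 hours after isolation and assayed by CUT&RUN, in which an antibody directs the cutting of chromatin to wherever its target sits. The cells fell into 3 conditions: Acly KO after hypoxia-reperfusion (KO HR), WT after hypoxia-reperfusion (WT HR), and WT in normoxia. KO cells came from Alb-cre:Acly f/f mice, whose floxed Acly alleles are cut by a Cre recombinase driven by the albumin promoter, and the labels name no transgene for WT mice. KO hepatocytes in normoxia were not analysed here, so a gene's pattern in KO HR was set beside WT HR and not beside its own baseline. Peak lists for H3K27ac and H3K9ac were used from all 3 conditions, and lists for an anti-FLAG antibody (ACLY-FLAG) from WT HR and WT normoxia. The sources used here do not state the origin of the FLAG tag in WT hepatocytes, the age of the mice or whether cells of several mice were pooled. With 1 library per antibody and condition, no difference in this account has a replicate check and no test was possible. The 3 IgG samples were not analysed here, and the RNA of the 8 genes in the 16 liver libraries of the series was not analysed here either, since the transcript identifiers were not paired with genes in the tables used.

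Cells repair damaged bases, single-strand breaks and double-strand breaks by separate routes that share a few enzymes. In base excision repair a glycosylase removes the damaged base, an endonuclease opens the strand, and a nuclease, a polymerase and a ligase close the gap. Oxidized bases are the best known substrates of that route, while double-strand breaks are rejoined end to end or copied from a sister chromatid, under the control of damage-sensing kinases. Acetylation of lysine 27 and of lysine 9 on histone H3 marks active promoters, and H3K27ac marks active enhancers as well.

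At 4 of the 8 genes a coding gene on the other strand starts within 1 kb upstream (background of 8.04% among the 17492 coding genes with a listed start). Only the most upstream listed start of each gene was used, which leaves out Tmem258 at Fen1. The start of Osgep lies 56 bp from that of Apex1, the start of Abhd13 37 bp from that of Lig4, the start of Nbr1 152 bp from that of Brca1, and the start of Npat 376 bp from that of Atm. A peak there belongs to both genes and cannot be assigned to either. The windows from 250 bases before to 50 bases after the start are shown for 3 of these pairs, because the peaks described here lie over such shared starts, and for Fancc, whose start differed from the others in H3K27ac. They were taken from RefSeq (GRCm38.p6) and are written 5′ to 3′ on each gene's strand. Capitals mark the stretch from the neighbour's start through the gene's own start; Fancc has no such neighbour and is all in lower case. Apex1 is chr14:50924699-50924998 on the plus strand, and Lig4 (chr8:9977631-9977930), Brca1 (chr11:101551906-101552205) and Fancc (chr13:63431696-63431995) are on the minus strand.
Apex1: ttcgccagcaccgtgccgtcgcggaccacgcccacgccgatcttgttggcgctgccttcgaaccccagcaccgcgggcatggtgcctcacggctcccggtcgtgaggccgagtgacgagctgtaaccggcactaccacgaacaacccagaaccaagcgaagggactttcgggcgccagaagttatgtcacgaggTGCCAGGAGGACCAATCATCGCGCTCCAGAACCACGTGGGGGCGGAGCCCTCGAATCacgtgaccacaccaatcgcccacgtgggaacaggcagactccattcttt
Lig4: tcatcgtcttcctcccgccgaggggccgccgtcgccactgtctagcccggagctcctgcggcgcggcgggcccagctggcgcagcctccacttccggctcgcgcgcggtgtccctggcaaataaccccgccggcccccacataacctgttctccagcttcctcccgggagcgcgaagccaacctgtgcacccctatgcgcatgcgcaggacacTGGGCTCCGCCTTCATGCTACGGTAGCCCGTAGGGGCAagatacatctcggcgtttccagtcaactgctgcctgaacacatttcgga
Brca1: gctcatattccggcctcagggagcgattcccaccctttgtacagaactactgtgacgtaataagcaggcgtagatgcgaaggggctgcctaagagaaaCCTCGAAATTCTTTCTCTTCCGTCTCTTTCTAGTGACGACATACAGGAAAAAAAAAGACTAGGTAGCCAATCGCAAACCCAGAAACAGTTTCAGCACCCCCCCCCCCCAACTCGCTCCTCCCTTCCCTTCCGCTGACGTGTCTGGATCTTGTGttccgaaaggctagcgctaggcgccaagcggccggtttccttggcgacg
Fancc: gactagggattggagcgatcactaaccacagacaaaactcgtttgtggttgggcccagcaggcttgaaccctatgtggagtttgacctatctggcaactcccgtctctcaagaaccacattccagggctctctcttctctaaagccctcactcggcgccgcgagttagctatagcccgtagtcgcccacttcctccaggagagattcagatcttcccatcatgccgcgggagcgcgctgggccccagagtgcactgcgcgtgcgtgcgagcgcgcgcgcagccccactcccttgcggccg

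Except at Fen1, the start windows of the 8 genes held more of the CpG dinucleotide than the median window of coding genes. The 8 windows held a median of 24 CpG in 300 bases and a median GC content of 61.8%, against 13 CpG and 56.3% over 21263 windows of coding genes. GC content was below that 56.3% at Fen1 (45.3%), Brca1 (53.7%) and Lig3 (54.0%). Those coding windows were not matched for acetylation at the start. Apex1 had 31, Lig4 30, Atm 28, Ogg1 25, Fancc 23, and Lig3 and Brca1 19 each. Fen1 had 10, the lowest of the 8, in the window of its upstream start. Motifs were searched on both strands by exact letters. The shares given for them are over windows of all genes, not coding genes alone, and were not matched for CpG content. The hypoxia response core ACGTG was found in 4 windows (Ogg1, Apex1, Lig3 and Brca1; 19.6% of the 32851 windows of all genes hold it) and the E-box CACGTG, which contains that core, in Apex1 and Lig3 (7.15%). The CCAAT box was found in 5 windows (CCAAT; 37.4% of all windows), the GC box in 4 (GGGCGG; 35.7%), the ETS site in 3 (CCGGAAG; 8.86%), the cyclic AMP response core in 2 (TGACG; 20.8%) and the E2F site TTTGGCGC in 0 (0.514%). In the Apex1 window printed above, the capitals hold GGACCAATC, a CCAAT box, and CCACGTGG, an E-box.

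The lists differed in length and in how they were made, which touches each count below. The KO HR lists held 14418 H3K27ac and 8837 H3K9ac peaks, the WT HR lists 8252 and 7593, and the WT normoxia lists 5655 and 6513. ACLY-FLAG had 3666 peaks in WT HR and 1 in WT normoxia. That 1 peak was 38570 bp wide with a total signal of 2.6e+07, while the highest total in the WT HR list was 26484. A list of 1 such peak cannot show whether ACLY-FLAG was absent from a gene in normoxia. Peak edges in the WT lists lay on a grid of 10 bp (at least 99.98% of peaks) and those in the KO lists did not (0.943% and 1.01%), and the median H3K27ac peak was 3845 bp wide in KO HR, 7410 bp in WT HR and 10340 bp in WT normoxia. The KO and WT lists were therefore not made in the same way, and genotype and list making cannot be told apart. The signal that the lists give for each peak is the authors' own value, on a scale not given by the labels or headers, so it was used only to rank peaks inside a list. A peak's place is its rank by total signal as a percentage of the list, with the strongest peak nearest 0%. Read depth is unknown from these lists. Of 12 hepatocyte marker genes, 9 or 10 held H3K27ac and 8 held H3K9ac in each condition, while Serpina1a and Cyp2e1 held no acetylation peak in any. Lists of 6 markers for each of 5 other liver cell types had 0 to 2 genes with either mark, and every stellate cell marker was without one. Among all coding genes, 22.6% to 37.9% held H3K27ac and 31.9% to 36.4% H3K9ac, by condition. The endothelial list (33.3% for H3K27ac, Stab2 and Lyve1 in all 3 conditions) was above that share in WT HR and WT normoxia. Cd68, a macrophage marker, held both marks in all 3 conditions. Sox9, Cftr and Cd79a also held peaks, in some lists.

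All 8 genes held H3K27ac in KO HR (background 37.9% of coding genes) and in WT HR (30.3%), and 2 of them, Brca1 and Fancc, in WT normoxia (22.6%). The other 6 held H3K27ac in WT HR and none in WT normoxia, which was so for 8.38% of coding genes, and 0 of the 8 had the opposite pattern (0.699%); these counts restate how the genes were selected. All 8 held H3K9ac in KO HR (35.9%), WT HR (36.4%) and WT normoxia (31.9%). ACLY-FLAG peaks lay at 2 of the 8 in WT HR, Brca1 and Atm (13.2%), and at none in WT normoxia, whose list has 1 peak. No member held H3K27ac in KO HR alone of the HR conditions, against 8.31% of coding genes with it in KO HR and not in WT HR. The H3K9ac and KO HR lists were in view when the genes were selected and are likewise a description.

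Peaks at the transcription starts were counted next. Within 1 kb of a listed start, H3K27ac was found at 8 of the 8 genes in KO HR (33.1% of the 17492), at 7 in WT HR (25.7%) and at 1, Brca1, in WT normoxia (17.7%). H3K9ac was found there at 8 in KO HR (33.6%), 8 in WT HR (34%) and 7 in WT normoxia (29%). Of the 8 genes, 7 had H3K9ac at the start in all 3 conditions (26%), and Fancc was the exception. H3K27ac stood at the start in WT HR and not in WT normoxia in 6 genes (8.46%). Among the 2202 coding genes that had H3K9ac and no H3K27ac at the start in WT normoxia, 1152 had H3K27ac there in WT HR (52.3%), and all 6 such members (Ogg1, Apex1, Fen1, Lig3, Lig4 and Atm) did. That share is a feature of the WT lists as a whole, the larger number of H3K27ac peaks in WT HR moves with it, and its part in the result was not tested. The 6 new peaks were 4440 to 6910 bp wide, and 3 of them (Apex1, Lig4 and Atm) had a total signal below 60122, the lowest in the WT normoxia H3K27ac list; whether those lists share a scale is not stated.

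**Figure D1:**
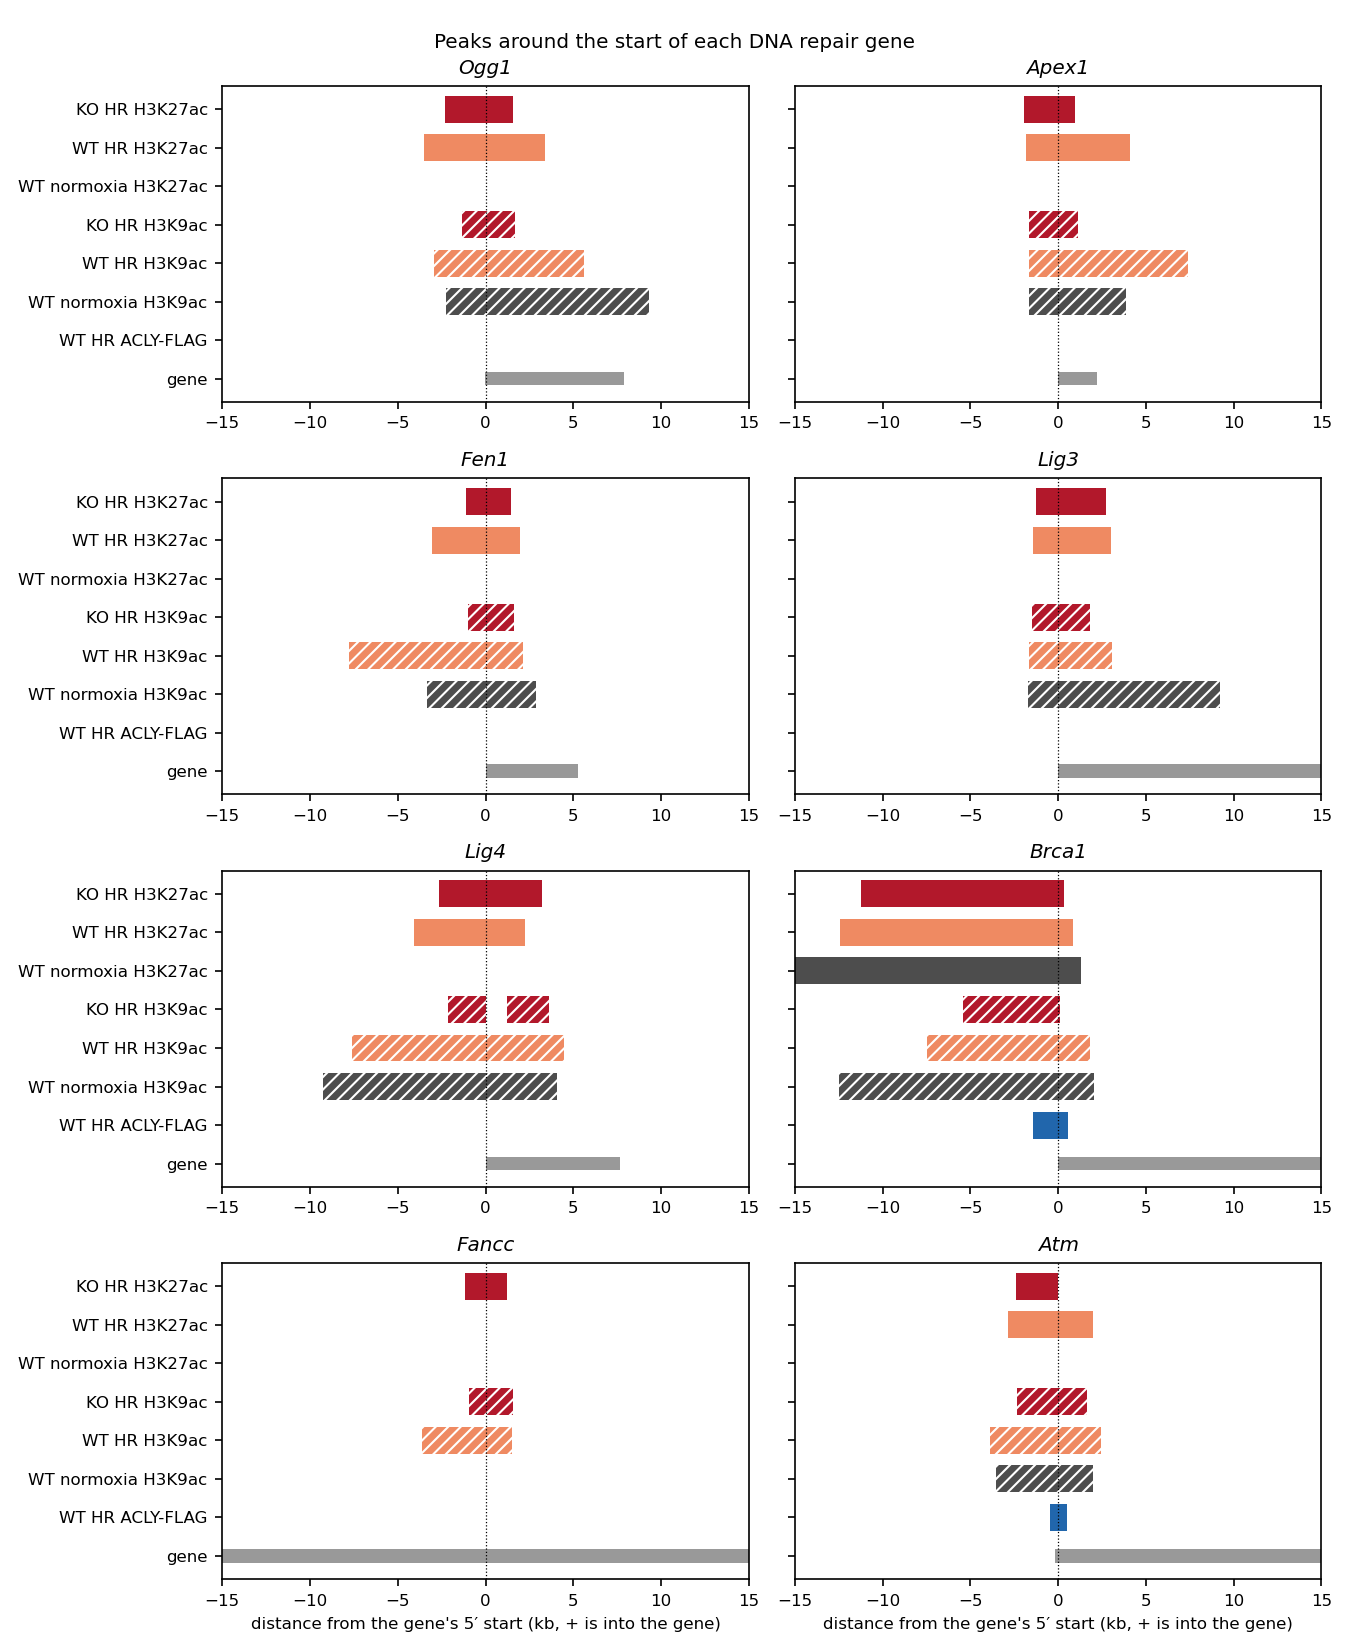
Peaks around the 5′ start of each of the 8 genes, with distance from that start in kb on the x axis and 1 row per list, from KO HR at the top of each mark to WT normoxia; colored bars are peaks, hatched for H3K9ac, the grey bar is the gene, and the Brca1 bar of WT normoxia H3K27ac runs on to -38.9 kb. With 1 library per row, H3K9ac bars lie over 7 starts in WT normoxia, whereas an H3K27ac bar does so at 1, Brca1.

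Ogg1 (chromosome 6, 113326972 to 113334877, plus strand) codes for the glycosylase that removes oxidized guanine. Its H3K27ac peak spanned 113324651 to 113328528 in KO HR, 3878 bp, and 113323471 to 113330380 in WT HR, 6910 bp. It ranked 5551 of 14418 in KO HR (place 38.5%) and 5268 of 8252 in WT HR (63.8%). In WT normoxia the nearest H3K27ac peak was 17.1 kb from the gene. H3K9ac covered the start in all 3 conditions, 3049 bp wide in KO HR, 8560 bp in WT HR and 11600 bp in WT normoxia, where it ran over the whole gene. The H3K9ac places were 66.2% in KO HR, 73.4% in WT HR and 61.7% in WT normoxia, in the weaker part of each list.

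Apex1 (chromosome 14, 50924949 to 50927188, plus strand) codes for the endonuclease that opens the strand at a site that has lost its base. Its H3K27ac peak was 2901 bp wide in KO HR, from 50923020 to 50925920, and 5960 bp in WT HR, from 50923091 to 50929050. The WT HR peak took in the whole gene and the start of Osgep, and the KO HR peak covered 43.4% of the gene. Its place was 47.8% in KO HR and 72.7% in WT HR, and the nearest WT normoxia H3K27ac peak lay 15.7 kb away. H3K9ac at the same start was 2786 bp wide in KO HR, 9060 bp in WT HR and 5510 bp in WT normoxia. Its place was 38.2% in KO HR, 23.0% in WT HR and 61.3% in WT normoxia. The upstream edge of the H3K9ac peak lay at -1645 bp from the start in KO HR, -1638 bp in WT HR and -1648 bp in WT normoxia, so the peaks differed in width on the downstream side. In WT HR the highest point of the H3K9ac peak lay 5771 bp after the start, beyond the gene. That peak also covered the start of Pip4p1, which those of KO HR and WT normoxia did not. Its width and place in WT HR thus cannot be credited to Apex1 alone.

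Fen1 (chromosome 19, 10199132 to 10204393, minus strand) codes for the nuclease that trims the displaced flap in long-patch repair and in replication. RefSeq lists starts at 10204393 and 10203921, and the start of Tmem258, on the other strand, lies between them, 191 bp from the upstream one. Each start peak of Fen1 described here also covered the start of Tmem258 and cannot be assigned to either gene. H3K27ac covered the upstream start over 2532 bp in KO HR (10202945 to 10205476) and 5000 bp in WT HR (10202451 to 10207450). Its place was 38.7% in KO HR and 49.1% in WT HR, and the nearest WT normoxia H3K27ac peak was 9.90 kb from the gene. By maximum signal within the WT HR list the Fen1 peak reached 191, the highest of the 7 start peaks of these genes. H3K9ac was 2588 bp wide in KO HR, 9900 bp in WT HR and 6170 bp in WT normoxia. Its place was 46.6% in KO HR, 32.3% in WT HR and 55.8% in WT normoxia.

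Lig3 (chromosome 11, 82781109 to 82804274, plus strand) codes for DNA ligase III, which works with the scaffold protein Xrcc1 in closing single-strand breaks. Its start peak in H3K27ac was 4009 bp in KO HR (82779820 to 82783828) and 4440 bp in WT HR (82779661 to 82784100). The places were 37.6% in KO HR and 53.6% in WT HR. A further H3K27ac peak lay at or just beyond the 3′ end of Lig3, from 82804762 to 82810209 in KO HR and from 82800941 to 82809710 in WT HR. Its highest point lay beyond Lig3 in both. It also lay over Rffl, with 0% of its width inside Lig3 in KO HR and 38.0% in WT HR, so it cannot be assigned to Lig3 alone. In WT normoxia the nearest H3K27ac peak was 12.5 kb from the gene and 35.7 kb from the start. H3K9ac at the start was among the stronger peaks in each list, with places of 15.7% in KO HR, 25.2% in WT HR and 23.1% in WT normoxia. Its width was 3308 bp in KO HR, 4720 bp in WT HR and 10940 bp in WT normoxia.

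Lig4 (chromosome 8, 9970020 to 9977680, minus strand) codes for DNA ligase IV, which seals double-strand breaks in end joining together with Xrcc4. H3K27ac ran from 9974474 to 9980341 in KO HR (5868 bp, place 60.5%) and from 9975431 to 9981760 in WT HR (6330 bp, place 75.2%). The nearest WT normoxia H3K27ac peak was 455.8 kb away, the farthest among the 6 genes without one. H3K9ac was listed in KO HR as 2 peaks, of 2375 bp (9974085 to 9976459) and 2155 bp (9977639 to 9979793), each over 1 of the listed starts. The weaker of these had a place of 93.5% and the stronger, at the start shared with Abhd13, 50.8%. It formed 1 peak over both starts in WT HR (12130 bp, place 19.7%) and in WT normoxia (13310 bp, place 24.2%).

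Brca1 (chromosome 11, 101488761 to 101551955, minus strand) codes for a ubiquitin ligase subunit that brings double-strand breaks into homologous recombination. It was the 1 gene of the 8 with H3K27ac at its start in all 3 conditions. The peak was 11567 bp wide in KO HR (101551625 to 101563191), 13240 bp in WT HR (101551131 to 101564370) and 40180 bp in WT normoxia (101550661 to 101590840). Its places were 7.06% in KO HR, 15.98% in WT HR and 10.9% in WT normoxia, nearest the top among the start peaks of the 8 genes in each H3K27ac list. The peak lay almost wholly outside Brca1, with 2.86% of its width inside the gene in KO HR, 6.23% in WT HR and 3.22% in WT normoxia, and the rest over Nbr1 and beyond. Neither the peaks in HR nor the peak in normoxia can thus be credited to Brca1 alone. H3K9ac was 5513 bp wide in KO HR, 9310 bp in WT HR and 14510 bp in WT normoxia, with 1.96% of its width inside Brca1 in KO HR, 19.5% in WT HR and 14.1% in WT normoxia. Its place was 9.47% in KO HR, 25.8% in WT HR and 17.2% in WT normoxia. KO HR also listed a weak H3K27ac peak 32.0 kb into Brca1, 1585 bp wide, at place 98.3%.

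Fancc (chromosome 13, 63301334 to 63497292, minus strand) codes for a subunit of the Fanconi anemia core complex, which acts on crosslinked DNA strands. The start that RefSeq lists for it lies 65.5 kb inside the annotated gene of 196.0 kb, so positions are given from that start. H3K27ac covered it in KO HR (63430538 to 63432936, 2399 bp, place 70.6%) and in neither WT list. H3K9ac covered it in KO HR (2505 bp, place 92.0%) and in WT HR (5130 bp, place 99.5%, the rank being 7555 of 7593) and not in WT normoxia. The H3K9ac peaks at this start were thus in the weakest part of their lists in KO HR and in WT HR. Of the 4494 coding genes with H3K27ac at the start in WT HR, 97.6% also had it in KO HR, and 7 of 7 members did; of the 12998 without it, 10.7% had it in KO HR, and the 1 such member, Fancc, did. What gave Fancc H3K27ac in normoxia by the selection rule was a peak far inside the gene, 104 to 109 kb from the listed start. The gene Aopep overlaps that site as well, so the peak cannot be assigned to Fancc alone. That peak was in KO HR from 63323742 to 63326905 (place 34.6%), in WT HR from 63323101 to 63326770 (73.0%) and in WT normoxia from 63322771 to 63327830 (47.5%). H3K9ac was listed at the same site in WT normoxia (3770 bp, place 89.5%) and in neither HR list. A very wide H3K27ac peak in WT HR, 72910 bp at rank 56, lay over Aopep, ended within 1 kb of the 3′ end of Fancc and did not enter Fancc. KO HR listed a weak H3K27ac peak just inside that end, from 63302281 to 63306687 (place 85.3%), also over Aopep.

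**Figure D2:**
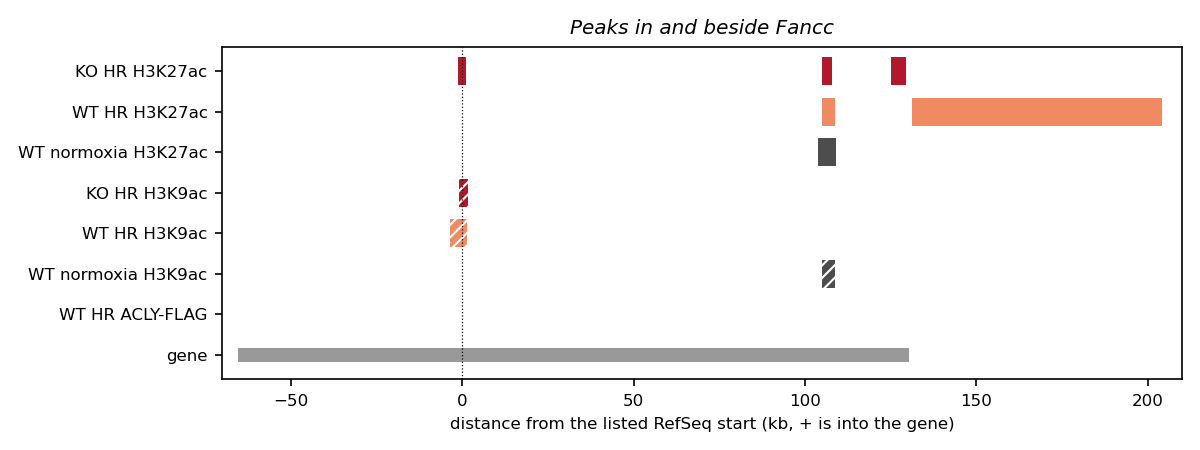
Peaks in and beside Fancc, with distance from the listed RefSeq start in kb on the x axis and 1 row per list; bars are peaks, 1 library per row. An H3K27ac bar at the start appears in KO HR, H3K9ac bars at the start in KO HR and WT HR, and the bar between 104 and 109 kb recurs in the 3 H3K27ac lists and in WT normoxia H3K9ac.

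Atm (chromosome 9, 53437122 to 53536828, minus strand) codes for the kinase that signals double-strand breaks. H3K27ac at its start was 2376 bp wide in KO HR (53536685 to 53539060) and 4810 bp in WT HR (53534701 to 53539510). The places were 71.9% in KO HR and 80.4% in WT HR, the weakest start peak of the 8 genes in each list. The KO HR peak ended 14 bp before the listed start and its highest point lay at -894 bp, on the Npat side, while the WT HR peak covered the start and had its highest point at -1015 bp. The nearest WT normoxia H3K27ac peak was 52.0 kb from the gene. H3K9ac covered the start in all 3 conditions, 3985 bp in KO HR, 6340 bp in WT HR and 5520 bp in WT normoxia. Its place was 24.0% in KO HR, 41.9% in WT HR and 76.1% in WT normoxia.

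Over the start peaks, H3K27ac in KO HR had a median width of 3390 bp and a median place of 43.3% (8 genes), and in WT HR a median width of 5960 bp and a median place of 63.8% (7 genes). For each of the 7 genes with both, the KO HR peak was narrower and had a place nearer the top as a percentage of its list. By rank itself, Brca1 alone was nearer the top in KO HR (1018, against 1319 in WT HR). The others ranked lower in KO HR, from Ogg1 (5551, against 5268) to Atm (10368, against 6637), so their nearer place comes with the longer list. Places in lists of 14418 and 8252 peaks show no change in level, and for width, genotype and list making cannot be told apart. In H3K9ac the median place was 42.4% in KO HR, 29.1% in WT HR and 55.8% in WT normoxia, with no common order across the genes: Lig4 was nearest the top in WT HR, and Atm in KO HR. Ranked by signal per width, the median H3K9ac place was 28.8% in KO HR, 64.5% in WT HR and 51.5% in WT normoxia, which turns WT HR into the farthest from the top.

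**Figure D3:**
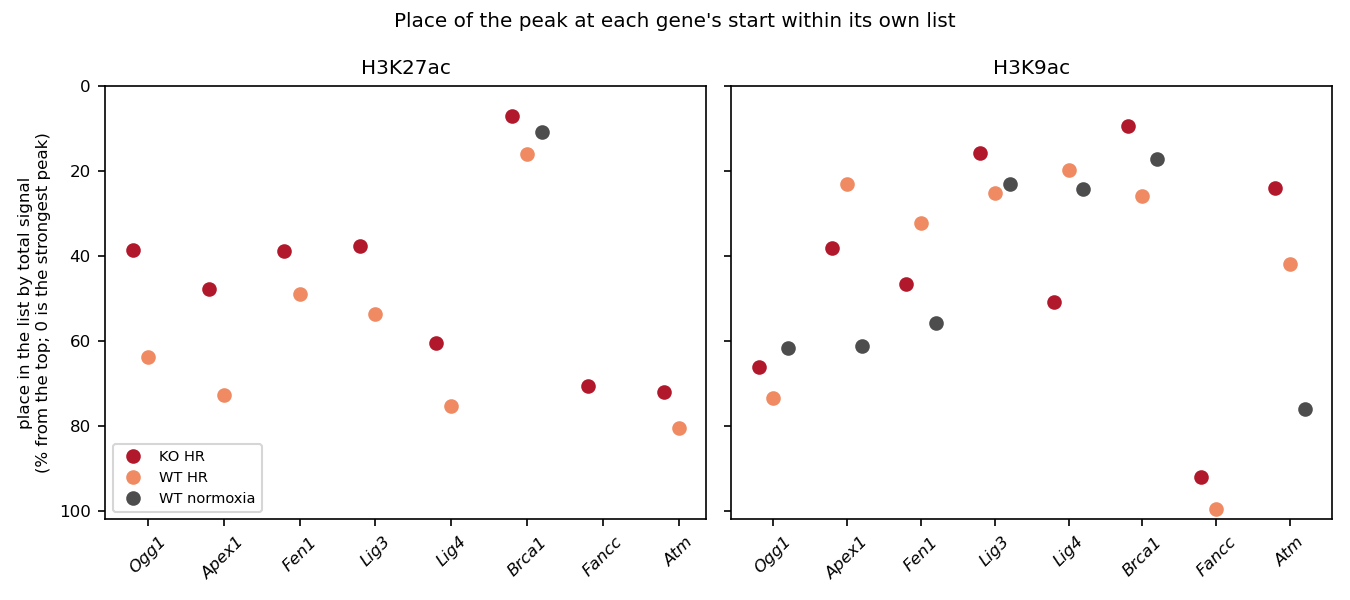
Place of each gene's start peak within its own list, in percent from the top by total signal on a reversed axis (0 is the strongest peak), for H3K27ac and H3K9ac; each point is 1 peak in 1 library, the stronger one for Lig4 H3K9ac in KO HR, and colors are the conditions. H3K27ac points in WT normoxia exist for Brca1 alone (10.9%), and those of KO HR lie above those of WT HR for the 7 genes with both. The KO HR list is the longer one, and by rank itself Brca1 alone was nearer the top in KO HR.

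The H3K27ac peaks in WT HR lay mostly inside H3K9ac peaks of WT normoxia. Of the 7 start peaks in WT HR, 7 were overlapped by KO HR H3K27ac, 7 by WT HR H3K9ac, 7 by WT normoxia H3K9ac, and 1 (Brca1) by WT normoxia H3K27ac. Such sharing was common: of the 4494 coding genes with H3K27ac at the start in WT HR, 93.5% had H3K9ac there in WT HR, 88.6% had H3K9ac there in WT normoxia and 67.1% had H3K27ac there in WT normoxia, where 1 of the 7 members did. The WT normoxia H3K9ac peaks covered 82.2% of the Ogg1 peak, 92.4% of the Apex1 peak and 100% of the other 5. WT HR H3K9ac covered 62.8% of the Brca1 peak, 91.8% of the Ogg1 peak, 96.3% of the Apex1 peak and 100% of the other 4. Fancc has no place in these counts, since its start held no H3K27ac in WT HR.

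ACLY-FLAG lay at 2 of the 8 starts in WT HR (10.4% of coding genes). At Brca1 the peak ran from 101551381 to 101553400, 2020 bp, at rank 375 of 3666 (place 10.2%), over the starts of Brca1 and Nbr1. At Atm it ran from 53536181 to 53537140, 960 bp, at rank 3351 (place 91.4%), over the starts of Atm and Npat. Both lay wholly inside an H3K27ac peak and an H3K9ac peak of WT HR. Of the 4201 coding genes with both acetylation marks at the start in WT HR, 27.5% also had an ACLY-FLAG peak there, and 2 of the 7 such members did, a share near that background. For the other 6 genes the nearest ACLY-FLAG peak lay between 9.15 kb (Fen1) and 932.1 kb (Lig4) from the gene.

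When the H3K27ac lists were cut to the 5655 strongest peaks, the length of the shortest, the starts of 4 genes kept the mark in KO HR (16.2% of coding genes), 4 in WT HR (19.4%) and 1 in WT normoxia (17.7%). The 4 were Ogg1, Fen1, Lig3 and Brca1 in both HR lists. The starts of Apex1, Lig4 and Atm had H3K27ac in WT HR through peaks below that rank. With H3K9ac lists of 6513 peaks, the same 7 starts had the mark in KO HR (26.9%), WT HR (30.3%) and WT normoxia (29.0%), all but that of Fancc.

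Ogg1, Apex1, Fen1, Lig3 and Lig4 shared 1 pattern over the 8 lists, with H3K27ac in KO HR and WT HR, H3K9ac in all 3 conditions and no ACLY-FLAG, as did 899 other coding genes (4.11%). The pattern of Brca1 was that of 1375 coding genes (6.28%), that of Fancc of 2665 (12.2%) and that of Atm of 301 (1.38%). Among genes of the same pattern, those nearest in place (mean absolute difference over the 5 lists with a peak) were Alkbh3 for Ogg1 (5.28 percentage points) and Rpl15 and Nkiras1 for Lig3 (3.78). For Apex1, Fen1 and Lig4 the nearest were Osgep, Tmem258 and Abhd13, which share the very same peaks (0), followed by 2810004N23Rik and Gnpat for Apex1 (4.09), 1110065P20Rik and Yrdc for Fen1 (3.94) and Rps15 for Lig4 (4.41). Brca1 shared its peaks with Nbr1 and was next nearest to Zfp143 (2.90, over 7 lists), and Atm shared them with Npat and was next nearest to Taf6 and Cnpy4 (8.99, over 6 lists). Fancc had no near match, the closest being Tspan9 (11.8, over 6 lists). Its place in WT HR H3K27ac was here that of the strongest peak within 1 kb, the 72910 bp peak beside the gene (0.679%). The mismatch thus rests in part on a peak that does not enter Fancc.

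A list of 72 DNA repair genes in 7 pathways, the 8 included, gave the wider setting. H3K27ac was found at 38 of the 72 in KO HR (52.8%, against 37.9% of coding genes), 29 in WT HR (40.3%, against 30.3%) and 15 in WT normoxia (20.8%, against 22.6%). With all 3 H3K27ac lists at the length of the shortest, 15 of the 72 held the mark in KO HR (20.8%, against 19.98% of coding genes), 19 in WT HR (26.4%, against 23.2%) and 15 in WT normoxia (20.8%, against 22.6%), so KO HR no longer had the larger count. H3K9ac was found at 33 in KO HR (45.8%, against 35.9%), 37 in WT HR (51.4%, against 36.4%) and 32 in WT normoxia (44.4%, against 31.9%). Without the 8, the 64 others had H3K27ac at 30 in KO HR (46.9%), 21 in WT HR (32.8%) and 13 in WT normoxia (20.3%), which in WT HR and in WT normoxia is near the background. For H3K9ac, which all 8 held in each list, the 64 others had it at 25 in KO HR (39.1%), 29 in WT HR (45.3%) and 24 in WT normoxia (37.5%), nearer the background than with the 8.

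**Figure D4:**
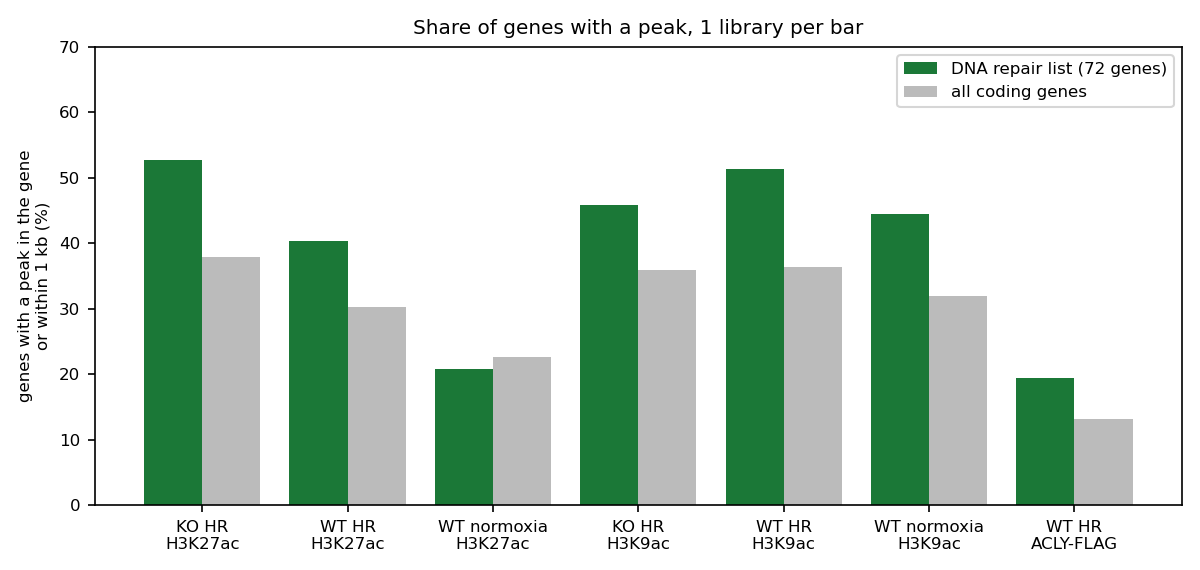
Share of genes with a peak in the gene or within 1 kb (y axis, percent) in each list (x axis), for the DNA repair list (green) and for all coding genes (grey); each bar rests on 1 library. In WT normoxia H3K27ac the repair list (20.8%) and all coding genes (22.6%) stand side by side, and in KO HR H3K27ac they are at 52.8% and 37.9%; at equal list length the KO HR shares are 20.8% and 19.98%.

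The pathway counts of H3K27ac stand beside 37.9% of coding genes in KO HR, 30.3% in WT HR and 22.6% in WT normoxia, and they include the 8 genes, which were selected on this mark. H3K27ac was found at 9 of 18 genes of base excision and single-strand break repair in KO HR, 8 in WT HR and 3 in WT normoxia; Ogg1, Apex1, Fen1 and Lig3 are 4 of those in each HR list. Atm is 1 of the damage signalling genes counted in each HR list, Lig4 1 of those of end joining, Brca1 1 of those of homologous recombination and Fancc 1 of those of the Fanconi anemia pathway. Damage signalling had it at 8 of 12 genes in KO HR, 5 in WT HR and 1 in WT normoxia. End joining had 4 of 8 in KO HR, 4 in WT HR and 2 in WT normoxia, and homologous recombination 5 of 11 in KO HR, 4 in WT HR and 2 in WT normoxia. The Fanconi anemia pathway had 2 of 8 in KO HR, 3 in WT HR and 2 in WT normoxia, the 1 pathway of the 7 with fewer genes in KO HR than in WT HR. Mismatch repair had 2 of 5 in KO HR, 0 in WT HR and 0 in WT normoxia, and nucleotide excision repair 8 of 10 in KO HR, 5 in WT HR and 5 in WT normoxia. Between WT HR and WT normoxia, 16 of the 72 held H3K27ac in WT HR alone, 6 of the 8 and 10 others (22.2%, against 8.38% of coding genes), and 2 (Ddb2 and Mdc1) in WT normoxia alone (2.78%, against 0.699%). The 22.2% includes the 6 genes selected on this contrast, and of the 64 other repair genes 10 had the pattern. This contrast was not counted at equal list length, and the WT HR list is the longer one. Between the HR conditions, 10 held it in KO HR alone (13.9%, against 8.31%), 1 (Fancg) in WT HR alone (1.39%, against 0.672%) and 28 in both (38.9%, against 29.6%). Those 28 include all 8 selected genes, and 20 of the 64 others held it in both, so the 38.9% in part restates the selection. For H3K9ac, 9 were in WT HR and not in WT normoxia (12.5%, against 5.92%) and 4 the other way (5.56%, against 1.45%), and none of the 8 genes was among them. Between the HR conditions, 5 held H3K9ac in KO HR alone (6.94%, against 3.46%) and 9 in WT HR alone (12.5%, against 3.97%).

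The repair genes outside the 8 whose marks differed most between conditions fell into several pathways. Rad52, which anneals single strands in recombination, and Ercc5, an endonuclease of nucleotide excision repair, held both marks in KO HR and in WT HR and neither in WT normoxia. Tdg, a thymine glycosylase, and Nbn, a subunit of the break-sensing Mre11 complex, held both marks in WT HR, H3K27ac alone in KO HR and neither in WT normoxia. Neil1, a glycosylase for oxidized bases, and Ercc4, an endonuclease subunit, held both marks in KO HR, neither in WT HR and H3K9ac alone in WT normoxia. Fancg, another subunit of the Fanconi core complex, held neither in KO HR, both in WT HR and H3K27ac alone in WT normoxia. Marks of these genes were counted anywhere in the gene or within 1 kb, and neighbouring genes were not checked. For Nbn and Fancg no peak was counted at a listed start, which 56 of the 72 genes have.

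ACLY-FLAG in WT HR was found at 14 of the 72 repair genes (19.4%, against 13.2% of coding genes), Brca1, Atm and 12 others. Of the 12, Aptx and Ddb1 held both acetylation marks in all 3 conditions. Pms2 held H3K9ac in all 3 and H3K27ac in KO HR, and H2afx, the histone variant phosphorylated at breaks, held H3K9ac in all 3 and H3K27ac in both HR conditions. No peak of H2afx was counted at a listed start. Blm held H3K27ac in all 3 and H3K9ac in WT normoxia, Ercc4 had the pattern given above, and Mdc1 held H3K27ac in WT normoxia alone. The other 5, Dclre1c, Trp53bp1, Xrcc2, Msh6 and Chek2, held no acetylation peak in any condition.

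**Figure D5:**
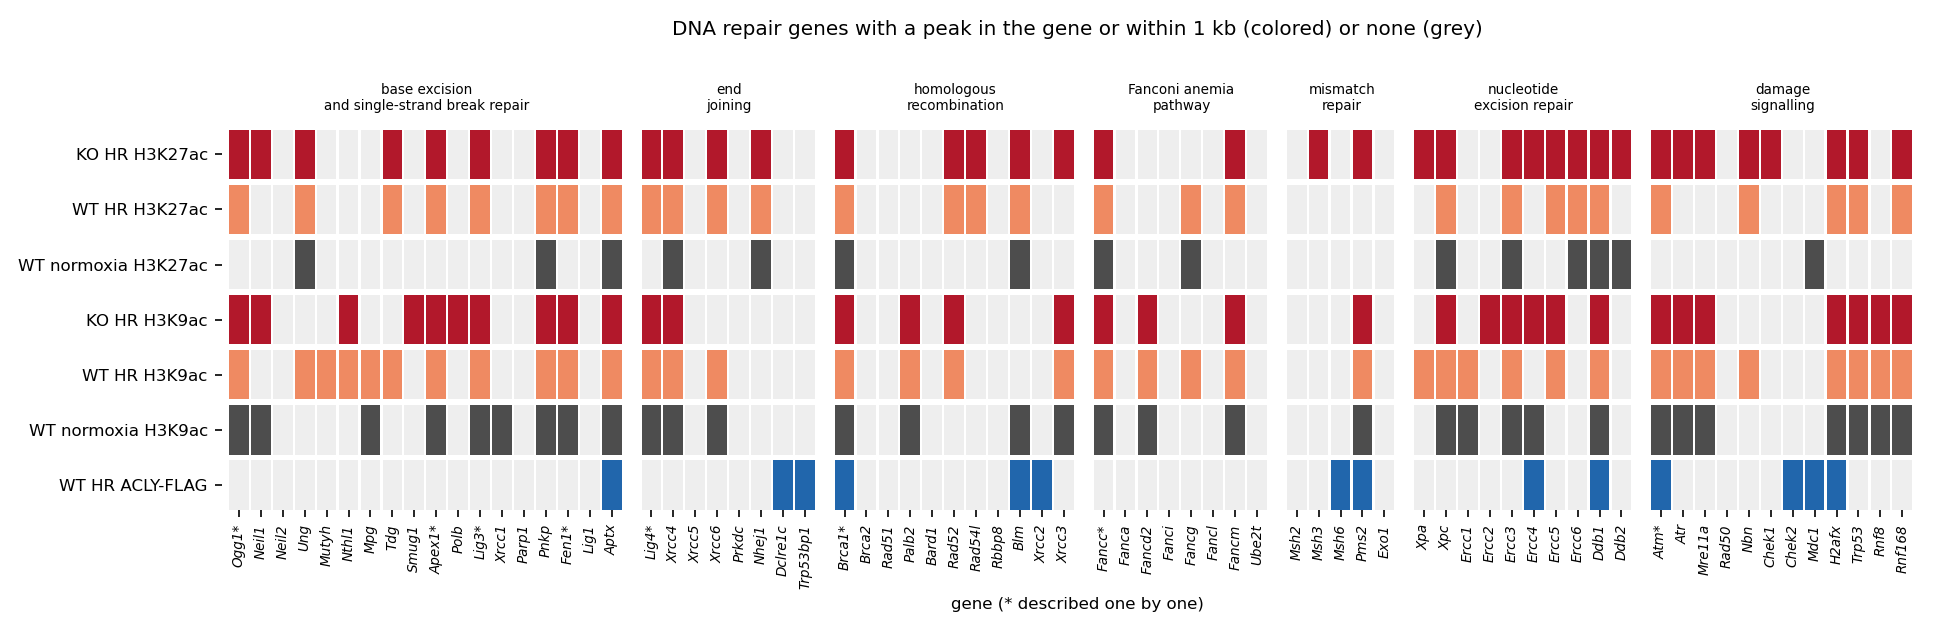
The 72 DNA repair genes (x axis, grouped by pathway) against 7 peak lists (rows), colored where a peak lies in the gene or within 1 kb and grey where none does, 1 library per row. The H3K27ac rows hold 38 colored genes in KO HR, 29 in WT HR and 15 in WT normoxia, and the ACLY-FLAG row 14.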

How the data were processed

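CUT&RUN libraries of primary hepatocytes were analysed from 8 peak lists, 1 library per antibody and condition. The authors deposited for each peak a position, a total signal and a maximum signal, on a scale not given in the sources used here. Coordinates are mm10, per the submitters' processing notes; the aligner and the peak caller are not given in the sources used here. Groups came from the sample titles. Starts were counted from 1 and peaks joined to RefSeq genes of GRCm38.p6 by 1 shared base, with a window of 1 kb, in Python 3.11.15 (pandas 2.3.3, numpy 2.4.6, matplotlib 3.10.9). The joins were tested on simulated data. Signal was used to rank peaks within a list. Alternatives were other windows, equal list lengths, the upper 50% of each list, a minimum overlap of 50% and other rankings.

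The 8 genes and all gene lists were chosen with earlier results of these data known. Other repair genes were named where the number of acetylation marks differed by 2 between conditions or an ACLY-FLAG peak was present. The counts over repair genes leave out 1 gene of the planned list, which is not reported here; each such count is within 1 of that over the planned list. Tests on liver RNA were planned for a table pairing transcripts with genes; none was used, so they were not run. The IgG samples were not analysed here.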

Additional observations from a re-analysis of the deposited data

How the results depend on the processing

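Of 100 alternative values for 25 results, 74 stayed within a factor of 1.5 of the reported value and 26 did not. For the 8 genes, equal list lengths left 5 with H3K27ac in KO HR and 5 in WT HR. The upper 50% of each list left 3 in WT HR H3K27ac, 5 in KO HR H3K9ac, 3 in WT normoxia H3K9ac and 1 in ACLY-FLAG. Counting at starts, or asking for 50% coverage, left 1 in WT normoxia H3K27ac. For the 72 repair genes, equal lengths gave 15 in KO HR and 19 in WT HR H3K27ac, beside 15 in WT normoxia. The upper 50% gave, for H3K27ac, 17 in KO HR, 12 in WT HR and 8 in WT normoxia, for H3K9ac 16 in KO HR, 20 in WT HR and 12 in WT normoxia, and 6 in ACLY-FLAG. Counting at starts gave 19 in WT HR and 7 in WT normoxia H3K27ac, and 50% coverage gave 6 in WT normoxia H3K27ac. These alternatives use fewer peaks or smaller windows. Ranking by maximum signal put the Brca1 peak of WT normoxia H3K27ac at 3.89%, and signal per width put it at 83.6%. The median place of WT HR H3K9ac became 52.8% by maximum and 64.5% by signal per width, farther from the top than KO HR (28.8%) and WT normoxia (51.5%) by that ranking, and that of ACLY-FLAG 18.0% and 25.5%; the cause was not tested. Equal lengths were not run for ACLY-FLAG, whose shorter list has 1 peak, and the alternatives for RNA were not run. No replicate could be left out with 1 library per condition. No paired analysis was possible because the results come from no test, with 1 library per antibody and condition. Depth is unknown, so a missing peak is not an absent mark.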
